A study of Saccharomyces cerevisiae with 17 samples.

Results

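The pentose phosphate pathway of budding yeast (Saccharomyces cerevisiae) is covered here by 9 genes, chosen by name as the glucose-6-phosphate dehydrogenase gene and the duplicated genes of 4 later steps. They are 9 of the 7126 features counted, and all 9 were among the 6195 genes that passed the filter on low counts. ZWF1 (YNL241C) encodes glucose-6-phosphate dehydrogenase, the entry step, which makes NADPH. SOL3 (YHR163W) and SOL4 (YGR248W) encode 6-phosphogluconolactonases, which open the lactone formed by that step. GND1 (YHR183W) and GND2 (YGR256W) encode 6-phosphogluconate dehydrogenases, which make NADPH again and release ribulose-5-phosphate. TKL1 (YPR074C) and TKL2 (YBR117C) encode transketolases. TAL1 (YLR354C) encodes transaldolase, and NQM1 (YGR043C) encodes a transaldolase of less settled role.

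The oxidative branch of the pathway turns glucose-6-phosphate into ribulose-5-phosphate and is a main source of cytosolic NADPH in yeast. The non-oxidative branch, run by transketolase and transaldolase, exchanges carbon units between sugar phosphates and links the pathway back to glycolysis. In each duplicated pair, the gene named first above (SOL3, GND1, TKL1 and TAL1) carried most of the mRNA before salt and is called the major paralog here, and its partner the minor paralog.

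RNA was measured by poly(A)-selected sequencing in 17 libraries. All came from 1 strain, a MATa derivative of BY25598 in which the tagged gene XRN1-AID (HIS) puts an auxin-inducible degron on Xrn1, the exonuclease that degrades decapped mRNA in the cytoplasm. The plant receptor OsTIR1, which auxin needs to trigger the degron, was expressed under ADH1 from ura3-1::ADH1-OsTIR1-9Myc(URA3). The strain also carries ade2-1, his3-11,15, trp1-1 and can1-100, and an allele of leu2 whose number is not spelled out here. Cells in log phase on YPD at 30 ºC received 500 µM auxin for 30 min (Xrn1-AID) or no auxin (Xrn1-WT), and no solvent control is named, so auxin itself and loss of Xrn1 cannot be told apart. Each arm was sampled with no NaCl and after 10 or 30 min in 0.4 M NaCl, with 3 libraries a group but 2 for Xrn1-AID at 30 min. Both arms carry the degron and the receptor, so Xrn1-WT is not an unmodified strain, and the study's design text puts Xrn1 protein after auxin at less than 10%. Nothing in the labels tells if replicates came from separate cultures, so p-values measure the spread between these libraries, which may be technical.

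Libraries held 13.9 to 30.4 M counts, and a count of 0 would allow up to 0.0986 to 0.215 counts per M counts (CPM) by counting error alone. XRN1 mRNA was higher in Xrn1-AID before salt (log2 fold change 1.23 ± 0.35 SE, adjusted p = 0.0153). It was not called between the arms at 10 min (0.51) or 30 min (0.36). These values say nothing of the protein, on which the degron acts, and do not check which libraries received auxin. Of the markers of mating type, STE2 of a cells had group means of 96.4 to 251 CPM and STE3 of alpha cells of 0.446 to 0.814 CPM, while SAG1, the other alpha cell marker, had 17.1 to 44.97 CPM. The Xrn1-WT 0 min replicate 1 library stood apart for TKL2, NQM1 and SOL4, with 11.2, 29.2 and 15.6 CPM. The other Xrn1-WT 0 min libraries held 2.04 to 4.67 CPM of these genes. Over all genes, however, replicate 1 deviated least from the mean of its group. The SD of its deviations in log2 CPM was 0.269, against 0.415 in replicate 2 and 0.494 in replicate 3. Values without replicate 1 are given beside the results that it moves most. Which of these libraries is the better baseline was not tested.

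The promoters of 6 of the genes are shown because the 4 minor paralogs and ZWF1 were higher after salt while GND1 was not. Each is 300 bases of the coding strand, from 400 to 101 bases before the ATG, read from the R64 genome of RefSeq (the build also called sacCer3). The 100 bases next to the ATG were left out because the annotation gives no transcription start. Capitals mark AGGGG or its reverse complement CCCCT, the stress response element that the stress activators Msn2 and Msn4 are known to bind.
TKL2, chrII:476538-476837, minus strand: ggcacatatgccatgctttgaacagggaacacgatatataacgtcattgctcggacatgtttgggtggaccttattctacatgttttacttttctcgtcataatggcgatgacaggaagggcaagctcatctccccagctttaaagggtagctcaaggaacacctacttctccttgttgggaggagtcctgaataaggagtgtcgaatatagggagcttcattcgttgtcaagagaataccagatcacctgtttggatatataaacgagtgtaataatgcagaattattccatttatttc
NQM1, chrVII:581537-581836, minus strand: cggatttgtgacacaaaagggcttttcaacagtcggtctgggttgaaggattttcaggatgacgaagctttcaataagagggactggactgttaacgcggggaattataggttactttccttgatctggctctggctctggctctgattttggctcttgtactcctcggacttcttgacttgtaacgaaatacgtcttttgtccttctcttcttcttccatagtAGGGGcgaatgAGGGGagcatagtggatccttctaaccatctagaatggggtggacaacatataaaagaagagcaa
GND2, chrVII:1004224-1004523, plus strand: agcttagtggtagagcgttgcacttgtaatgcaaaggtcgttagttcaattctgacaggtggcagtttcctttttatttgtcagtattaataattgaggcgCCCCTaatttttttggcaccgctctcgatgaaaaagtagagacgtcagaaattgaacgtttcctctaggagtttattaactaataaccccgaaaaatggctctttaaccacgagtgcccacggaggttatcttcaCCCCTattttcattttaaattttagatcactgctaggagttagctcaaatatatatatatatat
SOL4, chrVII:985572-985871, plus strand: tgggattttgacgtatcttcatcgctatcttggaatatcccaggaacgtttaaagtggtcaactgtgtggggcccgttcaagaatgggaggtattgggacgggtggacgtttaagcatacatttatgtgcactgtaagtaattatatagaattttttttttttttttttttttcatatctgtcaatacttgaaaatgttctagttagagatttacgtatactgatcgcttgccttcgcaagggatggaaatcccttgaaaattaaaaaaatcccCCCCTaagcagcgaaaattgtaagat
ZWF1, chrXIV:198044-198343, minus strand: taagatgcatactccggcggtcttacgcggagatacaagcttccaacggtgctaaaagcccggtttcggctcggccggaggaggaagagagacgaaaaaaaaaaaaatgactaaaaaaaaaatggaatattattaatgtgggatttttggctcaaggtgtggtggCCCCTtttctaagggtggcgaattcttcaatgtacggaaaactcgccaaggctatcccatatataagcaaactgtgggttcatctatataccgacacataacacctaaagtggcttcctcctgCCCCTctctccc
GND1, chrVIII:470560-470859, plus strand: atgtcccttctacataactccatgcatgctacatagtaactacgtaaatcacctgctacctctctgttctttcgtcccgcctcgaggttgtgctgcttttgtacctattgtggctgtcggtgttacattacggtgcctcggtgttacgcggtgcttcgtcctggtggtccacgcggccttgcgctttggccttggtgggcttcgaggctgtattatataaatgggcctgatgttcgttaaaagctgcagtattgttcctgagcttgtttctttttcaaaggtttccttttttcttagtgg

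NQM1, GND2 and ZWF1 each held 2 of these elements in the window, SOL4, TKL1 and TAL1 held 1 each, and TKL2, GND1 and SOL3 held 0. Over 6001 promoters of the same length and position, 23.5% held at least 1 element and 4.12% at least 2. The minor paralogs thus ranged from 0 to 2 and the major paralogs from 0 to 1. The Yap1 element TTACTAA (or TTAGTAA) was in 0 of the 9 windows and in 6.82% of the 6001. These matches describe the letters of a window only. The far end of the GND2 window runs into the neighbouring gene YNCG0046W, 336 bases before GND2, and that of SOL4 into CPD1, 286 bases before SOL4. The same holds for GND1, with RGD3 383 bases before it, and for SOL3, with MPC2 262 bases before it.

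After salt the minor paralog rose in all 4 duplicated steps, and in 3 of them its mRNA came to exceed that of the major paralog by 30 min. In Xrn1-WT, TKL2 was 59.4-fold higher after 10 min and 211-fold after 30 min, and NQM1, GND2 and SOL4 were 81.4-fold, 36.4-fold and 109-fold higher at 30 min. Over the same 30 min TKL1, GND1 and SOL3 fell to 0.531, 0.436 and 0.639 of their levels, and TAL1 was not called. ZWF1, which has no partner among these genes, was 2.1-fold higher at 10 min and 2.08-fold at 30 min. Folds and calls are from edgeR's quasi-likelihood test with Benjamini-Hochberg adjustment over the 6195 genes, and the CPM values below are TMM-scaled. With library size as the only scaling, the median log2 fold change of all genes itself moved. It was -0.50, 0.43 and 0.94 for 10 against 0, 30 against 0 and 30 against 10 min in Xrn1-WT. In Xrn1-AID it was -0.36, 0.29 and 0.62. Values under that scaling are to be read against these medians. In bulk RNA, a change in the share of cells that use a gene and a change in RNA per cell cannot be told apart. Statements below that groups did or did not overlap are descriptions, as the share of all genes without overlap is not given here.

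At 10 min in Xrn1-WT, 6 of the 9 genes were called higher and 0 lower, where 44.2% of all tested genes were called, 19.7% higher and 24.6% lower. At 30 min against 0 min 5 were higher and 3 lower, where 56.6% of tested genes were called, 29.1% higher and 27.5% lower. From 10 to 30 min 4 were higher and 4 lower, with 56.3% called among all genes, 30.6% and 25.7% by direction. In Xrn1-AID, 5 were higher and 1 lower at 10 min (35.5% of all genes, 19% higher and 16.6% lower). At 30 min 5 were higher and 3 lower (53.8% of all genes, 27.2% and 26.6%), and between these times 2 were higher and 3 lower (41.8%, 19.8% and 22.1%). These 5 calls became 3 when any 1 of the 10 or 30 min Xrn1-AID libraries was left out. The median log2 fold change of the 9 genes at 30 min was 1.06 in Xrn1-WT and 0.86 in Xrn1-AID, beside 0.01 over all genes in both arms.

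**Figure D1:**
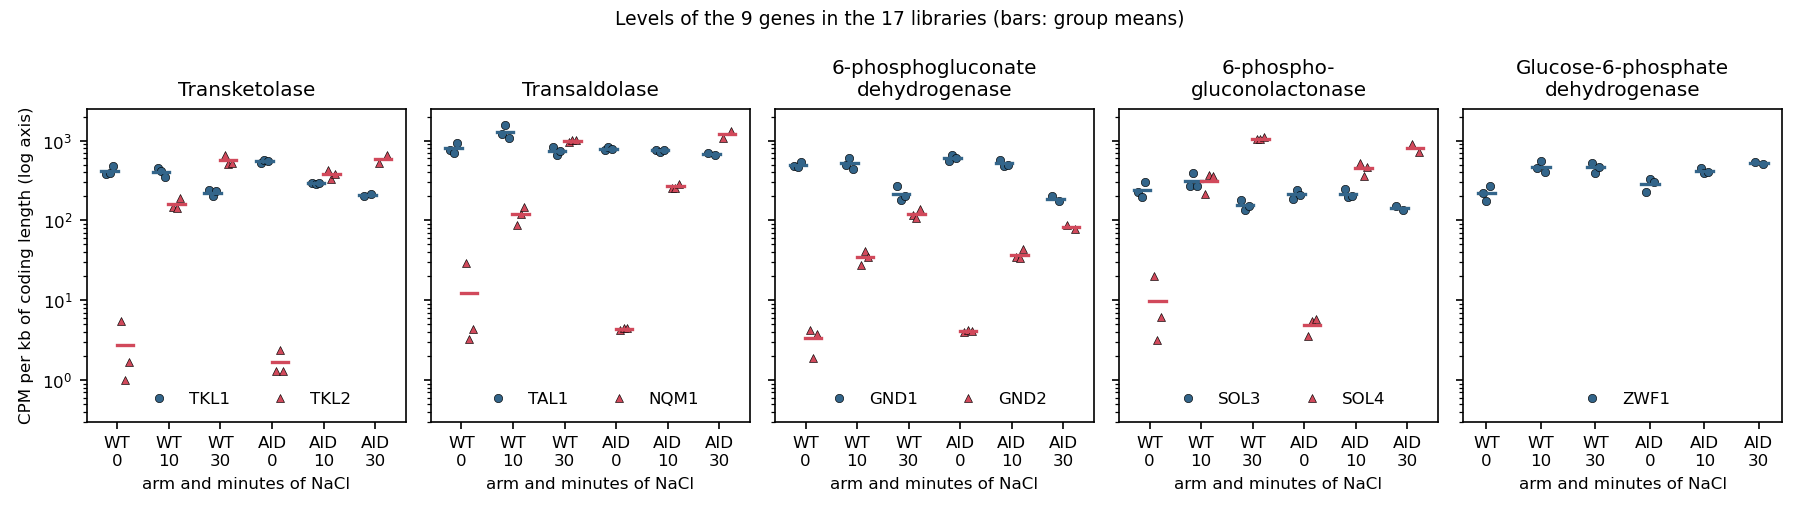
Level of each gene in each library as TMM-scaled CPM per kb of coding length (vertical log axis), by arm and minutes of NaCl (horizontal axis); circles are the major paralogs and ZWF1, triangles the minor paralogs, and bars the group means. TKL2, NQM1, GND2 and SOL4 rise from a few CPM per kb toward or past their partners, and the Xrn1-WT 0 min library with 29.2 CPM of NQM1 stands above its group.

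ZWF1, the entry step, stood at 333, 267 and 414 CPM in the 3 Xrn1-WT libraries before salt, at 683, 840 and 606 CPM after 10 min, and at 799.7, 596 and 717 CPM after 30 min. No library after salt overlapped those before it, and the 10 and 30 min groups overlapped each other (log2 fold change -0.01 ± 0.19, adjusted p = 0.967). With library size as the only scaling ZWF1 was higher at 30 than at 10 min in Xrn1-WT (0.87, adjusted p = 1.77e-05). The same held in Xrn1-AID (0.94, adjusted p = 5.6e-05). The medians of all genes under that scaling were 0.94 in Xrn1-WT and 0.62 in Xrn1-AID. The rise was 1.07 ± 0.19 at 10 min (adjusted p = 0.000306) and 1.06 ± 0.19 at 30 min (adjusted p = 0.000181). In Xrn1-AID the 0 min libraries held 346, 494 and 466 CPM, those at 10 min 678, 602 and 609, and those at 30 min 817 and 764 CPM. The groups again did not overlap 0 min, and the rise was 0.86 ± 0.21 at 30 min (adjusted p = 0.00263). At 10 min it was 0.53 ± 0.19 (adjusted p = 0.0402), a call that was lost in 6 of the 17 fits that left out 1 library (adjusted p up to 0.172) and with library size as the only scaling (0.22, adjusted p = 0.181). The call was also lost with DESeq2 size factors (adjusted p = 0.0638) and with either replicate block (adjusted p = 0.0657 and 0.0681).

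SOL4, the minor gluconolactonase, rose at both times. In Xrn1-WT it stood at 15.6, 2.43 and 4.67 CPM before salt, at 165.0, 286 and 274 CPM at 10 min, and at 802, 794 and 847 CPM at 30 min. The 3 times formed separate groups, with log2 fold changes of 5.01 ± 0.50 at 10 min (adjusted p = 6.92e-07) and 6.77 ± 0.54 at 30 min (adjusted p = 1.65e-08), which placed it 8th from the highest of all tested genes at 30 min. Without the library that stood apart, these were 6.08 and 7.83. In Xrn1-AID, SOL4 went from 2.70, 4.17 and 4.43 CPM to 402, 277 and 353 CPM and then to 696 and 553 CPM. Its rise there was 6.52 ± 0.54 at 10 min and 7.38 ± 0.57 at 30 min.

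SOL3, its partner, stood at 171, 147 and 228 CPM before salt in Xrn1-WT, at 201, 293 and 203 CPM at 10 min, and at 136, 101 and 112 CPM at 30 min. The 10 min group overlapped the 0 min group, while every 30 min library was below both. The fall was -0.65 ± 0.19 at 30 min (adjusted p = 0.00861) and it was not called without Xrn1-WT 0 min replicate 3 (-0.44, adjusted p = 0.0583). In Xrn1-AID the values were 140.4, 179 and 156 CPM, then 185, 147 and 153, and 114 and 102 CPM. The fall there was -0.55 ± 0.22 (adjusted p = 0.0425), and it was lost in 7 of the 17 fits that left out 1 library (adjusted p up to 0.187). The fall was called in neither arm with library size as the only scaling (-0.19, adjusted p = 0.239 in Xrn1-WT and -0.26, adjusted p = 0.157 in Xrn1-AID).

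GND2, the minor 6-phosphogluconate dehydrogenase, stood at 6.34, 2.82 and 5.54 CPM before salt in Xrn1-WT, at 40.2, 60.5 and 51.9 CPM at 10 min, and at 172, 158 and 205 CPM at 30 min. It rose by 3.38 ± 0.25 (log2) at 10 min (adjusted p = 1.9e-08) and 5.19 ± 0.26 at 30 min (adjusted p = 1.41e-10), with no overlap between times. In Xrn1-AID it was at 5.94, 6.34 and 6.01 CPM, at 51.5, 49.2 and 64.1 CPM, and at 130.2 and 114 CPM, rises of 3.17 ± 0.24 and 4.32 ± 0.26. GND2 was the minor paralog for which the Xrn1-WT 0 min replicate 1 library lay close to replicate 3.

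GND1, by contrast, was not called at 10 min and fell by 30 min. In Xrn1-WT it stood at 707, 682 and 794.5 CPM, then at 729.8, 895 and 656 CPM, and at 30 min at 391.5, 262.5 and 298 CPM. The 0 and 10 min groups overlapped (0.06 ± 0.17, adjusted p = 0.798), though with library size as the only scaling GND1 was lower at 10 min (-0.39, adjusted p = 0.0246). The median of all genes was -0.50 under that scaling. The fall at 30 min was -1.20 ± 0.18 (adjusted p = 1.92e-05). In Xrn1-AID, 805, 961 and 893 CPM became 847, 703 and 724 and then 297 and 256 CPM, a fall of -1.68 ± 0.21 at 30 min (adjusted p = 3.81e-06). With library size alone GND1 was called lower at 10 min here too (-0.55, adjusted p = 0.00486), beside a median of -0.36 over all genes.

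TKL2 showed the largest rise of all 6195 genes at 30 min in Xrn1-WT. It stood at 11.2, 2.04 and 3.46 CPM before salt, at 304, 291 and 387 CPM at 10 min, and at 1347, 1054 and 1081 CPM at 30 min. The log2 fold changes were 5.89 ± 0.49 (adjusted p = 8.96e-08) and 7.72 ± 0.53 (adjusted p = 2.86e-09), and 6.89 and 8.71 without the library that stood apart. In Xrn1-AID it went from 2.62, 4.91 and 2.65 CPM to 878, 667 and 779 CPM, and to 1059 and 1353 CPM at 30 min. The rise there was 7.84 ± 0.54 at 10 min and 8.48 ± 0.56 at 30 min, and the step from 10 to 30 min was not called (0.64 ± 0.43, adjusted p = 0.251). That step was called higher with library size alone (1.27, adjusted p = 0.0302) and in a fit of the compared groups alone (0.68, adjusted p = 0.0131). With library size alone the median of all genes for that step was 0.62.

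TKL1, the major transketolase, moved the other way. It stood at 788, 795 and 986 CPM before salt in Xrn1-WT, at 922, 851.5 and 704 CPM at 10 min, and at 486, 407.5 and 472 CPM at 30 min. The first groups overlapped, and the fall at 30 min was -0.91 ± 0.15 (adjusted p = 6.23e-05). In Xrn1-AID TKL1 began at 1063, 1158 and 1144 CPM and was already at 606, 579.6 and 597 CPM at 10 min, and at 407 and 442 CPM at 30 min. The fall was -0.92 ± 0.15 at 10 min (adjusted p = 0.000149) and -1.40 ± 0.17 at 30 min (adjusted p = 4.53e-06). TKL1 was lower at 10 min in Xrn1-WT as well with library size as the only scaling (-0.47, adjusted p = 0.0129). The median of all genes was then -0.50. Falls of TKL1 between 10 and 30 min (-0.86 in Xrn1-WT, -0.48 in Xrn1-AID) turned to 0.00154 and 0.13 under that scaling. The medians of all genes for these were 0.94 and 0.62.

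NQM1 in Xrn1-WT had 29.2, 3.30 and 4.41 CPM before salt, 88.3, 121 and 148 CPM at 10 min and 964, 1005 and 1015 CPM at 30 min. The times did not overlap. The log2 fold changes were 3.28 ± 0.56 (adjusted p = 0.000177) and 6.35 ± 0.64 (adjusted p = 2.68e-07), and 4.94 and 8.005 without the library that stood apart. In Xrn1-AID it went from 4.18, 4.44 and 4.53 CPM to 258, 257 and 284 CPM and to 1091 and 1328 CPM, rises of 5.93 ± 0.64 and 8.11 ± 0.71.

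TAL1 had 774, 699.8 and 952 CPM before salt in Xrn1-WT, 1225, 1591 and 1084 CPM at 10 min, and 846, 666 and 742 CPM at 30 min. It was higher at 10 min, by 0.69 ± 0.17 (adjusted p = 0.00389), with no overlap with 0 min, and at 30 min it overlapped the level before salt (-0.11 ± 0.17, adjusted p = 0.619). The 10 min call was lost with library size alone (0.25, adjusted p = 0.0728) and in a fit of these 6 libraries alone (0.74, adjusted p = 0.0669). In Xrn1-AID TAL1 had 764, 846 and 779.8 CPM, then 766, 734 and 778 CPM, and 708 and 661 CPM, with no call at either time (-0.07 ± 0.17 and -0.22 ± 0.19). With library size alone TAL1 was lower at 10 min in Xrn1-AID (-0.39, adjusted p = 0.0114) and higher at 30 min in Xrn1-WT (0.34, adjusted p = 0.0143). The medians of all genes for these were -0.36 and 0.43.

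**Figure D2:**
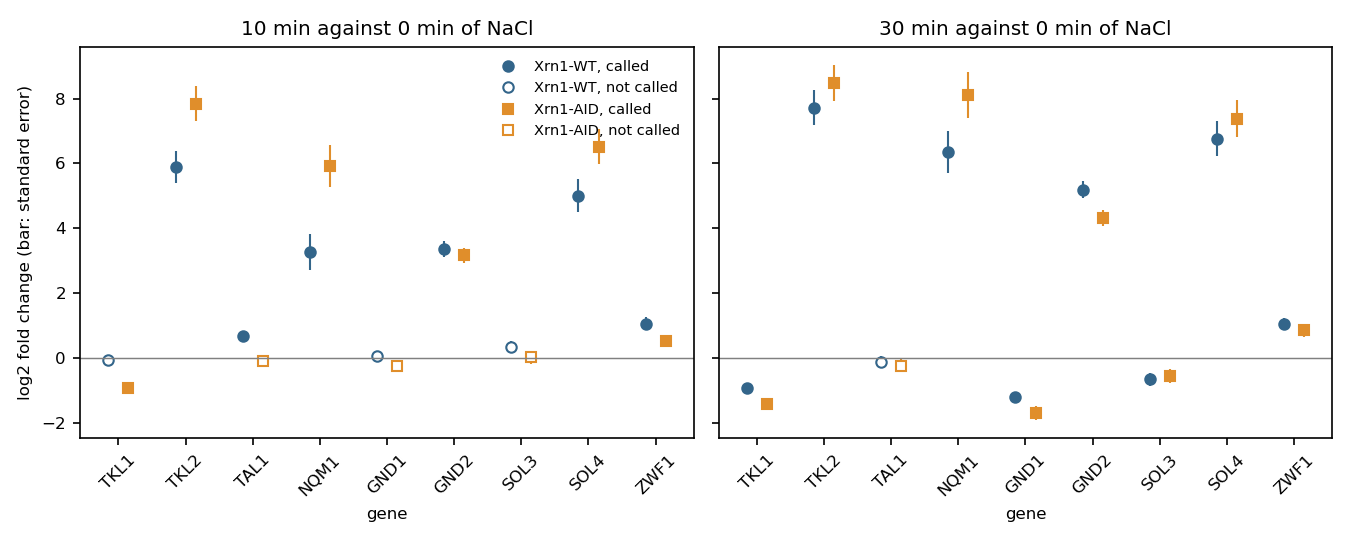
Log2 fold change of each gene (vertical axis, bars are standard errors) at 10 min (left) and 30 min (right) against 0 min of NaCl; blue circles are Xrn1-WT, orange squares Xrn1-AID, and filled symbols were called at an adjusted p under 0.05. At 30 min the 4 minor paralogs lie between 4.32 and 8.48 and the 4 major paralogs between -1.68 and -0.11.

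The ratio of both paralogs within a library needs no scaling between libraries. Shares below are the minor paralog's part of the pair's counts per coding length, as mean ± SD. In Xrn1-WT (n = 3 each) TKL2 made up 0.668 ± 0.635% of the transketolase pair before salt, 28.6 ± 5.98% at 10 min and 71.7 ± 1.96% at 30 min. NQM1 made up 1.53 ± 1.84%, 8.63 ± 2.96% and 57.2 ± 3.49% of the transaldolase pair. The shares before salt rested on Xrn1-WT 0 min replicate 1, with 1.40% of TKL2 against 0.255% and 0.349% in the other 2 libraries, and 3.66% of NQM1 against 0.472% and 0.464%. These pairs therefore passed an even share between 10 and 30 min.

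SOL4 was at 3.90 ± 3.68% before salt, already at 50.1 ± 6.30% after 10 min, and at 87.2 ± 1.80% at 30 min, the highest share of the 4 pairs. Before salt the same replicate 1 library held 8.14% of SOL4 against 1.59% and 1.96%. GND2 stayed the minor transcript throughout, at 0.66 ± 0.239%, 6.26 ± 1.05% and 36.2 ± 5.22%. In Xrn1-AID at 30 min (n = 2) the shares were 73.8 ± 2.24% for TKL2, 63.8 ± 4.32% for NQM1, 84.8 ± 1.08% for SOL4 and 30.6 ± 0.233% for GND2. GND1 thus kept the larger part of its pair in every library, while in the other 3 pairs the minor paralog held the larger part in all 5 libraries at 30 min.

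All 12 changes of the log2 ratio with time, 3 for each pair, passed a two-sided exact permutation test over both arms (p = 0.005 each, the smallest these designs can give, adjusted p = 0.00667 over 16 tests). From 0 to 30 min the ratio rose by 9.44 for TKL2 to TKL1, 7.87 for SOL4 to SOL3, 7.73 for NQM1 to TAL1 and 6.23 for GND2 to GND1. From 0 to 10 min the rises were 7.54, 5.76, 4.63 and 3.38 in that order. Within 1 arm of 3 against 3 the exact test cannot go below p = 0.1.

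**Figure D3:**
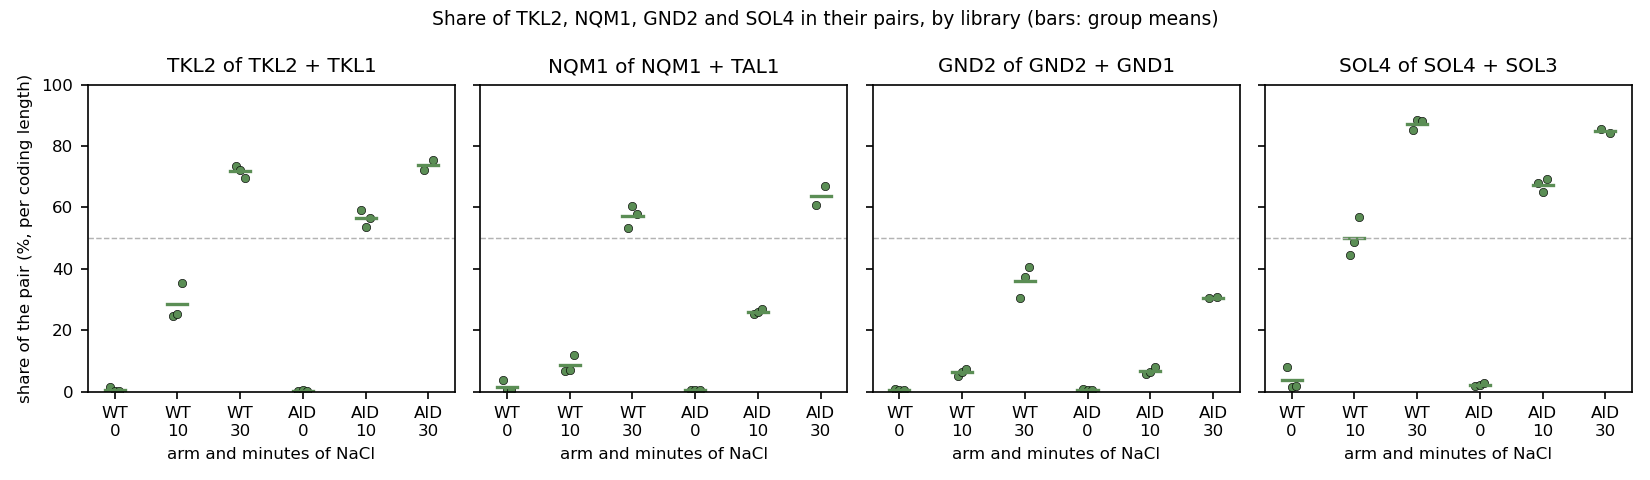
Share of the minor paralog in its pair (vertical axis, percent of counts per coding length) in each library, by arm and minutes of NaCl; bars are group means and the dashed line an even share. TKL2, NQM1 and SOL4 pass the line by 30 min in both arms, and GND2 ends at 36.2% and 30.6%.

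The summed level of each pair differed between the steps. Transketolase totals in Xrn1-WT were 422 ± 54.2, 564 ± 33.4 and 790.1 ± 94.8 CPM per kb of coding length at 0, 10 and 30 min. Transaldolase totals were 814 ± 127, 1409 ± 255 and 1738 ± 69.7, and gluconolactonase totals 253 ± 55.7, 624 ± 140 and 1215 ± 43.0 CPM per kb. Each of these 30 min groups lay above its 0 min group in every library, in both arms and also with library size as the only scaling. The 6-phosphogluconate dehydrogenase total went from 499 ± 40.7 to 552 ± 87.6 and to 336 ± 48.9 CPM per kb, and in Xrn1-AID from 607 ± 53.2 to 553 ± 51.9 and 270.4 ± 27.5.

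The gain of GND2 was thus smaller than the loss of GND1 on this scale, with 285 to 383 CPM per kb at 30 min against 466 to 544 before salt in Xrn1-WT. With library size as the only scaling the Xrn1-WT totals overlapped, at 422 to 476 and 414 to 539 CPM per kb, while the Xrn1-AID totals did not (343 to 344.5 and 622 to 641). The totals are described and were not tested.

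**Figure D4:**
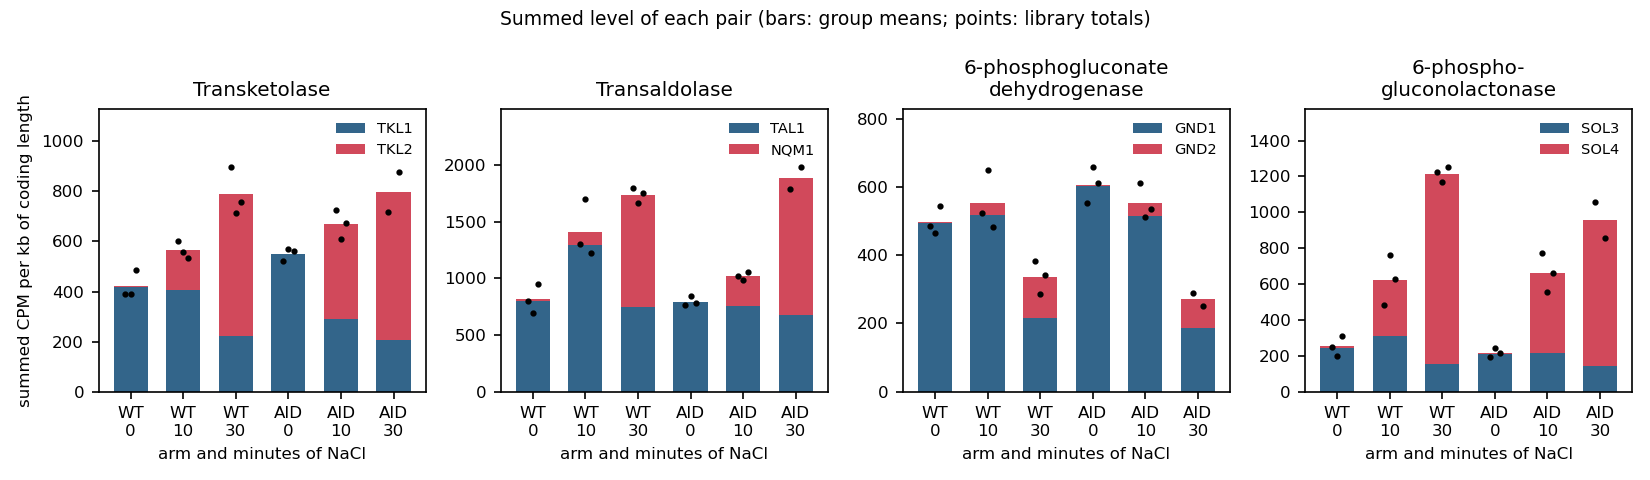
Summed level of each pair in TMM-scaled CPM per kb of coding length (vertical axis), by arm and minutes of NaCl; stacked bars are group means of the major (blue) and minor (red) paralog, and points the totals of the libraries. Totals end higher than they begin in 3 panels, and the 6-phosphogluconate dehydrogenase total ends at 336 and 270.4 CPM per kb.

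Reads of paralogs could in principle be exchanged. The coding sequences were 79.1% identical for GND1 and GND2, 69.4% for the transketolases, 69% for the transaldolases and 58.5% for the gluconolactonases. No stretch of 50 bases, the read length, matched between the genes of a pair with 2 or fewer mismatches (0 windows in each of the 4 pairs, fewest mismatches 3, 5, 8 and 14 in the order given). No gene of the RefSeq annotation overlaps any of the 9. The count table also holds a row YBR116C, numbered between LYS2 and TKL2, which RefSeq does not annotate. Its counts rose with salt as those of TKL2 did (15 to 63 before salt and 4190 to 4575 at 30 min in Xrn1-WT). Between the arms it did not follow TKL2, being called lower in Xrn1-AID before salt (-2.30 ± 0.66, adjusted p = 0.0146) and standing at -0.52 ± 0.415 at 10 min (adjusted p = 0.351). In the 2 Xrn1-AID 30 min libraries it had 3849 and 1931 counts where TKL2 had 21035 and 39139. Adding them to TKL2 gave shares of 32.5% at 10 min and 75.0% at 30 min, and the counting rule that divides reads between these rows is not given in the sources used here.

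The arms were compared at each time to ask whether depletion of Xrn1 altered these genes. Before salt 0 of the 9 genes were called (32.6% of all genes were called), with 3 at an unadjusted p under 0.05, namely TKL1 (0.39 ± 0.15, adjusted p = 0.0551), NQM1 (-1.48 ± 0.56, adjusted p = 0.0524) and SOL4 (-0.998 ± 0.47, adjusted p = 0.112). Without the library that stood apart, NQM1 and SOL4 were at 0.18 and 0.07. DESeq2's Wald test called TKL1 (0.36, adjusted p = 0.0261). It gave no adjusted p for NQM1, so the DESeq2 calls between the arms leave NQM1 out. At 30 min 0 of 9 were called (22.5% of all genes), with GND2 alone at an unadjusted p under 0.05 (-0.55 ± 0.24, adjusted p = 0.114) and DESeq2 calling 0. Leaving out Xrn1-WT 0 min replicate 2 gave 3 calls at 0 min and 1 at 30 min, leaving out its replicate 3 gave 2 at 0 min, and leaving out Xrn1-WT 10 min replicate 3 gave 1 at 0 min.

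At 10 min 1 was higher and 2 were lower in Xrn1-AID, where 28.2% of all genes were called, 17.3% higher and 10.9% lower. TKL2 was higher in Xrn1-AID, 667 to 878 CPM against 291 to 387 (log2 fold change 1.24 ± 0.40, adjusted p = 0.0288). TKL1 was lower, 579.6 to 606 CPM against 704 to 922 (-0.47 ± 0.15, adjusted p = 0.027), and so was TAL1, 734 to 778 against 1084 to 1591 CPM (-0.78 ± 0.17, adjusted p = 0.0045). NQM1 stood at 257 to 284 CPM against 88.3 to 148 (1.165 ± 0.51, adjusted p = 0.0971), and it was called in a fit of these 6 libraries alone (1.08, adjusted p = 0.00487). The TKL1 call was lost in 5 of 17 fits that left out 1 library (adjusted p up to 0.0949) and with library size alone (-0.29, adjusted p = 0.154), and the TKL2 call in 4 (up to 0.0873), in each case libraries of the 10 min groups. The TAL1 call was kept in all 17 (adjusted p at most 0.0271). Without Xrn1-WT 0 min replicate 1 there were 4 calls, 2 in each direction, with NQM1 among them (1.16, adjusted p = 0.000583). The 3 calls became 5 without Xrn1-WT 0 min replicate 2 or 3, and 1 without Xrn1-WT 10 min replicate 2 or without Xrn1-AID 10 min replicate 1 or 3.

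Within libraries the shares at 10 min lay apart between the arms for 3 pairs, which is a description only. TKL2 made up 56.4 ± 2.85% of its pair at 10 min in Xrn1-AID against 28.6 ± 5.98% in Xrn1-WT, NQM1 26.1 ± 0.77% against 8.63 ± 2.96%, and SOL4 67.4 ± 2.27% against 50.1 ± 6.30%, with no overlap for these 3 pairs. GND2 did overlap, at 6.76 ± 1.21% against 6.26 ± 1.05%. The difference in log2 ratio was 1.71 for TKL2 to TKL1, 1.95 for NQM1 to TAL1 and 1.04 for SOL4 to SOL3, each with an exact p of 0.1, the smallest that 3 against 3 allows. For GND2 to GND1 it was 0.12 (exact p = 0.6). At 0 min the exact p was at least 0.5 for every pair, and at 30 min at least 0.2. How often the ratio of other genes lies apart between these groups is not given here.

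Over all times together, the arms did not pass the exact permutation test for any ratio (adjusted p = 0.463 for TKL2 to TKL1, 0.342 for NQM1 to TAL1, and 0.795 each for GND2 to GND1 and SOL4 to SOL3). Without Xrn1-WT 0 min replicate 1 the first of these passed (0.602, adjusted p = 0.0474), and so did the second (0.863, adjusted p = 0.008). The differences between the arms' responses were called for 0 of the 9 genes at each pair of times, where 0.775%, 1.55% and 1.37% of all genes were called for 10 against 0, 30 against 0 and 30 against 10 min. For 10 against 0 min, 5 genes had an unadjusted p under 0.05, and DESeq2 called TKL1 (-0.93, adjusted p = 0.000369), TKL2 (1.895, adjusted p = 0.0314) and TAL1 (-0.83, adjusted p = 0.0252). NQM1, with the largest difference, had no adjusted p from DESeq2 and is not covered by its calls. For 30 against 0 min 3 genes (TKL1, NQM1 and GND2) had an unadjusted p under 0.05, for 30 against 10 min 1 (TAL1), and DESeq2 called 0 in both. Without Xrn1-WT 0 min replicate 1, 0 genes were called at any pair of times, and the differences for 10 against 0 min went from 1.95 to 0.96 for TKL2, from 2.64 to 0.98 for NQM1 and from 1.51 to 0.44 for SOL4. The difference of NQM1 for 30 against 0 min went from 1.76 to 0.10. Leaving out Xrn1-WT 0 min replicate 2 or 3 gave 2 calls for 10 against 0 min, and leaving out Xrn1-WT 10 min replicate 3 gave 1.

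Across the 17 libraries the log2 CPM of the minor paralogs ran together, with r between 0.968 and 0.994 for their pairs, and ZWF1 had r of 0.819 to 0.889 with them. Among the major paralogs r ran from 0.437 (TKL1 with TAL1) to 0.865 (TKL1 with GND1), and TAL1 had r of -0.133 to 0.0303 with the minor paralogs. These points share the 6 groups and their libraries, so the values are descriptions. Of 5100 genes with a mean of at least 10 CPM, the nearest in pattern to TKL2 and to SOL4 was ALD3 (r = 0.996 and 0.998), a cytosolic aldehyde dehydrogenase gene. GND2 was nearest to YNL134C (r = 0.992) and ALD2 (r = 0.990), and NQM1 to GLO1, the glyoxalase gene (r = 0.988). ZWF1 was nearest to CAR2 (r = 0.967). GND1 was nearest to TEF4, a gene of translation elongation (r = 0.973), and nearly as near to ARO2 (r = 0.967). TKL1 was nearest to NOP1, a gene of ribosomal RNA processing (r = 0.947), and nearly as near to ILV1 (r = 0.945). SOL3 was nearest to YLR179C (r = 0.966) and ARO8 (r = 0.964), and TAL1 to EMP24 (r = 0.94).

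Of 7 further genes of the pathway and its relatives, 4 were called higher and 3 lower at 30 min in Xrn1-WT, and 4 and 2 in Xrn1-AID. Among all tested genes 29.1% were higher and 27.5% lower in Xrn1-WT, and 27.2% and 26.6% in Xrn1-AID. The gain was in SOL1 (3.42 ± 0.19) and SOL2 (1.46 ± 0.29), relatives of SOL3 and SOL4, in XKS1, the xylulokinase gene (3.16 ± 0.16), and in RBK1, the ribokinase gene (0.84 ± 0.19). RKI1, which encodes ribose-5-phosphate ketol-isomerase, had the largest fall, from 182 to 231 CPM before salt to 12.1 to 14.6 CPM at 30 min (-3.99 ± 0.21 in Xrn1-WT, -3.53 ± 0.24 in Xrn1-AID). SHB17, the sedoheptulose bisphosphatase gene, fell as well (-1.94 ± 0.24 and -1.475 ± 0.27), and RPE1, the epimerase gene, fell in Xrn1-WT (-1.01 ± 0.35) and was not called in Xrn1-AID (-0.40 ± 0.395), with no call for the difference. With library size as the only scaling RPE1 was not called in Xrn1-WT (-0.51, adjusted p = 0.0844), and the other 6 relatives kept their calls in both arms.

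Of 8 other sources of NADPH or NADP, 2 were higher and 2 lower at 30 min in Xrn1-WT, and 2 and 1 in Xrn1-AID. In Xrn1-WT these counts were near the shares of all tested genes, 29.1% higher and 27.5% lower. In Xrn1-AID those shares were 27.2% and 26.6%. With library size as the only scaling, 4 were higher and 1 lower in Xrn1-WT, among them ALD6 (0.79, adjusted p = 0.00324). The median of all genes under that scaling was 0.43 there, and the shares of all genes called are not given here. ALD6, the cytosolic NADP-dependent aldehyde dehydrogenase, was higher at 10 min (2.59 ± 0.24, and 3.15 ± 0.25 in Xrn1-AID) and not called at 30 min. MAE1, the mitochondrial malic enzyme, fell in both arms (-2.65 ± 0.22 and -2.34 ± 0.25 at 30 min). IDP2, the cytosolic NADP-dependent isocitrate dehydrogenase, rose at 30 min by 1.25 ± 0.20 and 2.15 ± 0.21. YEF1, also of this list, was at low level, with means of 2.82 CPM at 0 min and 8.0 at 30 min in Xrn1-WT. In Xrn1-AID its means were 5.10 and 14.2 CPM.

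Of 16 users of NADPH, 8 were higher and 4 lower at 30 min in Xrn1-WT, and 9 and 2 in Xrn1-AID. The shares of all tested genes were 29.1% higher and 27.5% lower in Xrn1-WT, and 27.2% and 26.6% in Xrn1-AID. The carbonyl and aldose reductases GRE2 (4.91 ± 0.33), GRE3 (4.60 ± 0.30) and GCY1 (3.44 ± 0.16) led the rise in Xrn1-WT. The 4 that fell there, named after their values were seen, were OYE2, an NADPH oxidoreductase (-1.85 ± 0.18), GDH1, the NADP-dependent glutamate dehydrogenase (-1.54 ± 0.20), GPX2 (-0.65 ± 0.17) and TRR1 (-0.46 ± 0.15). With library size as the only scaling 12 were higher and 2 lower in each arm, and GPX2 and TRR1 were not called (-0.21 and -0.03 in Xrn1-WT). The medians of all genes under that scaling were 0.43 in Xrn1-WT and 0.29 in Xrn1-AID. A list of 10 PRS and ARO genes covers phosphoribosyl diphosphate and aromatic amino acid synthesis, pathways that draw on ribose-5-phosphate and erythrose-4-phosphate. Of these genes, 10 fell at 30 min in Xrn1-WT and 9 in Xrn1-AID, where 27.5% and 26.6% of all tested genes were lower. Their median log2 fold changes were -1.51 and -1.41. Under library size alone 7 fell in each arm and 0 rose. PRS3 fell most in Xrn1-WT (-2.48 ± 0.15), followed by ARO2 and ARO4. At 10 min, in contrast, 3 of the 10 were higher and 0 lower in Xrn1-WT, and 0 and 2 in Xrn1-AID. The shares of all tested genes were 19.7% higher and 24.6% lower in Xrn1-WT, and 19% and 16.6% in Xrn1-AID. With library size as the only scaling 0 were higher at 10 min in either arm, and 5 and 6 were lower. The medians of all genes were then -0.50 and -0.36.

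Of 4 regulators, 3 were higher at 30 min in Xrn1-WT and 0 in Xrn1-AID, also with library size as the only scaling, where 29.1% and 27.2% of all genes were higher by the main scaling. The difference between the arms' responses at 30 min was called for 0 of the 4 by edgeR's test, with 3 (MSN2, STB5 and YAP1) at an unadjusted p under 0.05. Before salt 2 of the 4 were called higher in Xrn1-AID (32.6% of all genes were called in either direction). Means in Xrn1-WT and Xrn1-AID were then 35.3 and 62.1 CPM for MSN2, and 12.9 and 19.3 for STB5. For MSN4 they were 17.1 and 24.5, and for YAP1 91.2 and 94.4. STB5 stood at 18.9 CPM in Xrn1-WT at 30 min. Between the arms at 30 min 0 of the 4 were called (22.5% of all genes). MSN2 mRNA, which encodes a stress activator, went from 35.3 ± 15.5 to 270.1 ± 80.9 and 99.2 ± 7.20 CPM in Xrn1-WT and was higher at both times (2.94 ± 0.30 and 1.49 ± 0.29). In Xrn1-AID it was called at 10 min (2.35 ± 0.29) and not at 30 min (0.44 ± 0.31). MSN4, its relative, was not called at either time in either arm. STB5, which encodes an activator of pathway genes under oxidative stress, rose at 30 min in Xrn1-WT (0.55 ± 0.20), as did YAP1 (0.85 ± 0.20), and neither was called in Xrn1-AID.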

How the data were processed

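The deposited table holds raw counts of reads for each gene, not normalised by the authors. Reads were single, 50 bases long and from a stranded kit, per the labels' protocols. The submitters' processing notes name TopHat2 (2.1.0), featureCounts (1.5.1), DESeq2 (1.22.2) and, as the build, sacCer3, without their roles. The strand setting and annotation are not given in the sources used here. Total counts of the 17 libraries ran from 13.9 to 30.4 M. In edgeR 4.0.16 (R 4.3.3), filterByExpr kept 6195 genes and TMM factors (0.591 to 1.48) set the scale, and 1 quasi-likelihood fit held a mean for each of 6 groups. A gene was called when its p, adjusted by Benjamini-Hochberg within each of 12 contrasts, was under 0.05. SE is the log2 fold change divided by the square root of F. The log2 ratio of paralogs used counts plus 0.5 over coding length and two-sided exact permutations of libraries within arm or time, adjusted over 16 tests. Coding regions, lengths and promoters came from RefSeq's R64 annotation, and paralogs were aligned globally with Biopython 1.88.

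The named genes are the 9 genes, all 7 relatives, and members with large changes of the other lists, not always the largest. YBR116C and YEF1 were named after their values were seen, as were OYE2, GDH1, GPX2 and TRR1 as the members of their list that fell. Members and lists were chosen with earlier results of these data known. Replicate numbers showed no sign of pairing the samples. Same-numbered libraries deviated together with r over 0.1 in 10 of 40 pairs (median r -0.0161), and differently numbered ones in 32 of 80 (median r 0.00244). With 2 or 3 libraries a group, these values cannot exclude pairing. Alternatives were other scalings and filters, DESeq2 1.42.0, replicate blocks, the compared groups alone, each library left out and, for ratios, 2 added to each count. The code of the tests was also run on simulated data with independent libraries. Its outcome is not given here, and it says nothing of any structure between the libraries used here.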

Additional observations from a re-analysis of the deposited data

How the results depend on the processing

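The 4 minor paralogs stayed called and higher against 0 min in both arms under all alternatives that gave an adjusted p (DESeq2 1.42.0 gave none for NQM1). With library size as the only scaling, the median of all genes shifted to -0.50, 0.43 and 0.94 for 10 against 0, 30 against 0 and 30 against 10 min in Xrn1-WT, and these signs of the 9 genes turned: GND1 at 10 min (-0.39), TAL1 at 30 min (0.34), and for 30 against 10 min TKL1 (0.00154), TAL1 (0.0945) and ZWF1 (0.87), and in Xrn1-AID TKL1 (0.13), TAL1 (0.46) and SOL3 (0.0302). Signs also turned, with no call under either scaling, for SOL3 at 10 min in both arms (-0.08 and -0.29), TAL1 at 30 min in Xrn1-AID (0.07), TAL1 at 0 min (0.07) and GND1 and ZWF1 at 10 min between the arms (0.20 and 0.03), and SOL3 for the difference of 30 min responses (-0.07). The cause was not tested. Genes called of 9 for 30 against 10 min in Xrn1-AID went from 5 to 3 under the filter at a mean of 10 CPM and under the replicate block by title, and to between 3 and 5 with 1 library left out. Between the arms at 0 min 1 was called with DESeq2 size factors, 2 with library size and 1 with the Wald test (0 to 3 with 1 library left out). At 10 min 5 were called in the compared groups alone (1 to 5), at 30 min 1 (0 to 1), and for the difference of 10 min responses 3 with the Wald test (0 to 2).

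Within Xrn1-WT and Xrn1-AID alone, the ratio rose from 0 to 10 min by 6.29 and 8.80 for TKL2 to TKL1, 3.27 and 5.99 for NQM1 to TAL1, and 5.03 and 6.49 for SOL4 to SOL3. From 10 to 30 min it rose by 2.68 and 1.12, 3.875 and 2.33, and 2.78 and 1.44. Same-numbered libraries as a replicate block, with sign flips over 5 or 6 pairs that cannot pass 0.05 after adjustment, gave adjusted p = 0.0833 for all 12 time tests, with rises at 10 against 0, 30 against 0 and 30 against 10 min of 7.54, 9.29 and 2.06 (TKL2), 4.63, 7.625 and 3.27 (NQM1), 3.38, 6.27 and 2.96 (GND2), and 5.76, 7.91 and 2.27 (SOL4), and 0.0323 for GND2 between the arms. With 1 library left out, the arms' difference in ratio ran from 0.193 to 0.602 (TKL2), 0.36 to 0.863 (NQM1), -0.146 to 0.0399 (GND2) and -0.0448 to 0.363 (SOL4). The replicate number of Xrn1-AID 30 min replicate 2 differs between its labels, and both numberings were run.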
